A study of Macaca mulatta with 7 samples.

Results

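The 6 genes described here are FGF1, FGF2 and FGF9, which encode fibroblast growth factors (FGFs), and FGFR1, FGFR2 and FGFR3, which encode FGF receptors. They were found by symbol among the 35432 gene identifiers deposited for the spinal cord of rhesus monkeys (Macaca mulatta), measured by single-nucleus RNA-seq in 7 libraries. The genes were chosen by their levels in each cell class and library, FGF1 for its level in oligodendrocyte nuclei, so these levels are a description and carry no test. Intact cervical, thoracic and lumbar cord gave 3 libraries, all from 1 uninjured female aged 5 years. Lumbar cord spared by, and distant from, a complete injury in which a stretch of thoracic cord was removed gave the other 4, with 1 animal each. These were taken 7 and 14 days post injury (dpi) at 7 years of age, and 30 dpi and 6 months post injury (mpi) at 6 years. Time point, animal, age and library therefore coincide and cannot be told apart, and all 4 injured libraries are set against the same intact lumbar library.

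FGFs bind receptor tyrosine kinases at the cell surface together with heparan sulfate, a sugar chain carried by core proteins such as the syndecans and glypicans. The bound receptor passes its signal through adaptors such as FRS2 and GRB2 to the RAS and MAP kinase cascade, and Sprouty, SPRED and DUSP proteins damp it. FGF1 binds every FGF receptor and is made by many neurons, motor neurons among them, FGF2 is a mitogen of oligodendrocyte precursor cells (OPCs), and FGF9 is a neuronal ligand that acts on glia. FGFR1 and FGFR2 work in the oligodendrocyte lineage during myelination, and FGFR3 is a known astrocyte gene.

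Coordinates are those of the RefSeq annotation of Mmul_10, the build named for the deposited counts. FGF1 (ENSMMUG00000057828) lies on the minus strand of chromosome 6 from 139998490 to 140109214 and encloses a small nucleolar RNA gene on the same strand. FGF2 (ENSMMUG00000007419) lies on the plus strand of chromosome 5 from 120667310 to 120739431, and NUDT6 overlaps it on the opposite strand. FGF9 (ENSMMUG00000009912) lies on the plus strand of chromosome 17 from 1839318 to 1872504 with no overlapping gene. FGFR1 (ENSMMUG00000022478) lies on the minus strand of chromosome 8 from 38876231 to 38935970, and LETM2 and a second gene overlap it on the plus strand. FGFR2 (ENSMMUG00000009594) lies on the minus strand of chromosome 9 from 121951371 to 122073604, with a long noncoding RNA on the plus strand. FGFR3 (ENSMMUG00000019945) lies on the plus strand of chromosome 5 from 1850711 to 1865822 with no overlapping gene. Whether reads were assigned by strand is not given in the sources used here, so FGF2, FGFR1 and FGFR2 values may hold reads of these partners.

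The matrices held 69332 barcodes and 777183139 unique molecular identifiers (UMIs, counted RNA molecules), and 63730 nuclei were kept after filters. Libraries held 45079131 UMIs at 6 mpi, the shallowest, to 150987900 in intact lumbar cord, with medians of 3191 to 7355 UMIs per kept nucleus. Clustering gave 22093 oligodendrocyte-like, 20675 microglia-like, 9892 neuron-like, 4319 astrocyte-like, 3971 OPC-like and 623 ependymal-like nuclei. The 6 oligodendrocyte markers found of 7 listed summed to between 12181 and 13586 CPM in oligodendrocyte-like nuclei of every library. CPM here is the count of a gene per 1000000 UMIs of a class in a library, with exact Poisson 95% intervals that cover counting error only. Barcodes shared by a pair of libraries numbered 12 to 36. Astrocyte-like nuclei numbered 98, 258, 152 and 118 at 7, 14 and 30 dpi and 6 mpi, against 932, 1776 and 985 in the uninjured animal in the cervical, thoracic and lumbar segments.

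FGF1 was not at its highest in oligodendrocyte-like nuclei in any library, which goes against the description under which it was listed. In intact cord its level in oligodendrocyte-like nuclei was 0.0633, 0.0809 and 0.109 times that of the highest other main class in the cervical, thoracic and lumbar segments. That class was neuron-like in the cervical and lumbar segments and astrocyte-like in the thoracic segment. After injury the highest other class was astrocyte-like throughout, and the fold at 7 dpi was 0.247 (95% interval 0.204 to 0.301). The fold was 0.338 (0.282 to 0.406) after 14 days, 0.359 (0.304 to 0.426) after 30 days and 0.755 (0.565 to 1.03) after 6 months. The interval reaches 1 at 6 mpi alone. Of all FGF1 UMIs in named classes pooled over the 7 libraries, neuron-like nuclei held 71.0%, oligodendrocyte-like nuclei 14.2% and astrocyte-like nuclei 9.05%. The shares differed by library. In intact lumbar cord astrocyte-like nuclei held 279 and oligodendrocyte-like nuclei 122 FGF1 UMIs. At 6 mpi neuron-like, oligodendrocyte-like, microglia-like and astrocyte-like nuclei held 622, 487, 203 and 51.

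The order of FGF1 levels in intact cord was as follows. Ependymal-like nuclei, which line the central canal, were highest with 105, 142 and 129 CPM in the cervical, thoracic and lumbar segments. Neuron-like nuclei came next with 55.3, 36.2 and 43.8 CPM, and astrocyte-like nuclei with 38.6, 43.9 and 35.4 CPM lay in an overlapping range. Oligodendrocyte-like nuclei at 3.50 to 4.80 CPM and OPC-like nuclei at 3.39 to 3.83 CPM also overlapped, and microglia-like nuclei were lowest at 1.77 to 2.36 CPM. No injured library held 50 ependymal-like nuclei, so their FGF1 level after injury is not given.

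In oligodendrocyte-like nuclei FGF1 rose in all 4 injured libraries. Its level was 3.50 (2.95 to 4.12), 3.55 (3.01 to 4.15) and 4.80 (3.98 to 5.73) CPM in intact cervical, thoracic and lumbar cord, from 143, 154 and 122 UMIs. At 7 dpi it was 38.1 (35.5 to 40.7) CPM and at 14 dpi 30.8 (28.1 to 33.7) CPM, from 836 and 476 UMIs. The 30 dpi library had 34.0 (31.8 to 36.3) CPM and the 6 mpi library 55.6 (50.8 to 60.8) CPM, from 918 and 487 UMIs. The injured and intact ranges do not overlap, and the level at 6 mpi lies above the intervals of the other 3 injured libraries. Against intact lumbar cord the log2 ratios of the 4 libraries, in order of time, were 2.99 (2.71 to 3.27), 2.69 (2.40 to 2.98), 2.83 (2.55 to 3.11) and 3.54 (3.25 to 3.83). With each nucleus thinned to 1000 UMIs they were 2.28, 1.97, 2.34 and 3.04. The intact cervical and thoracic segments differed from the lumbar segment by −0.46 and −0.43 on the same scale. A gene was called where its mean was at least 10 CPM over the 7 libraries, all 4 injured libraries lay outside the range of the 3 intact ones on 1 side, and all 4 were at least 2-fold from intact lumbar cord. By this rule 0.454% of 7922 genes in oligodendrocyte-like nuclei were higher and 0.29% lower. FGF1 was the called one of the 3 members tested there, but it was listed on these levels, so nothing is read from that count.

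**Figure D1:**
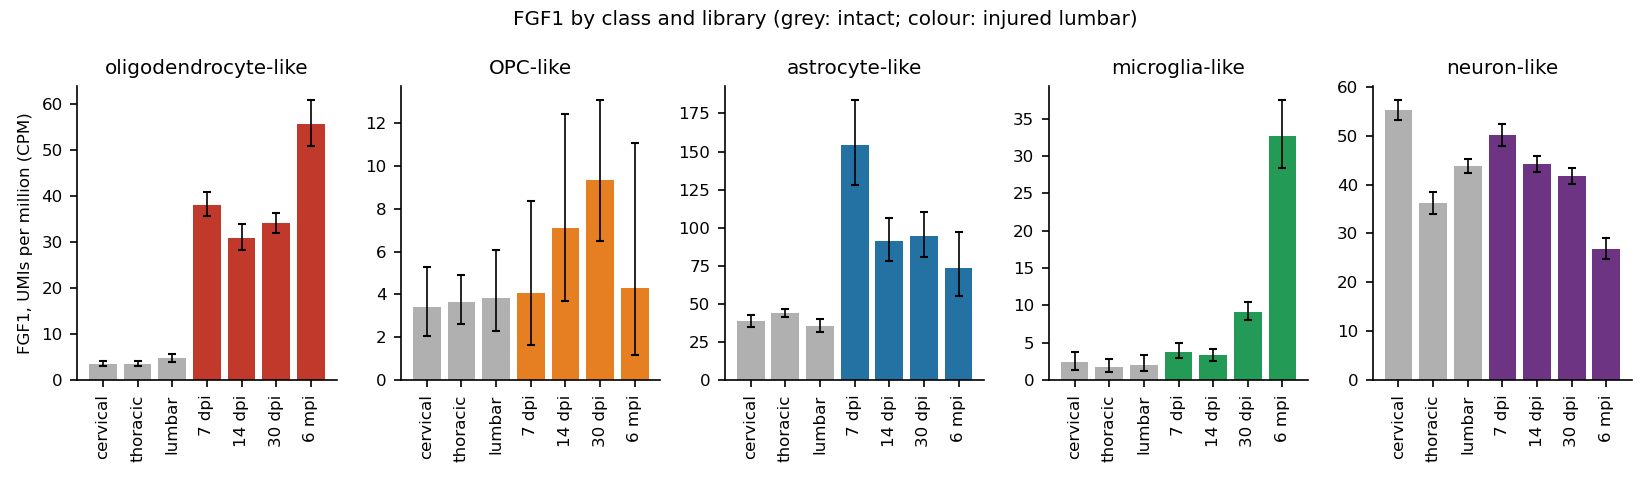
FGF1 in CPM in 5 classes, 1 panel per class with its own vertical axis from 0. Bars are libraries, grey for the 3 intact segments and coloured for the 4 injured lumbar libraries, and lines are exact Poisson 95% intervals. In oligodendrocyte-like nuclei the intact bars lie at 3.50 to 4.80 CPM and the injured bars at 30.8 to 55.6 CPM, whereas neuron-like bars of intact and injured cord overlap.

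The share of oligodendrocyte-like nuclei with an FGF1 UMI moved the same way once each nucleus was thinned to 1000 UMIs. It was 0.600%, 0.406% and 0.863% of nuclei in the 3 intact segments, in the order cervical, thoracic, lumbar. It was 3.88% (Clopper-Pearson 3.29 to 4.55), 3.26% (2.51 to 4.16), 3.86% (3.16 to 4.65) and 6.27% (5.23 to 7.45) at 7, 14 and 30 dpi and 6 mpi. Without thinning the shares were 2.45% to 2.53% in intact and 13.7% to 17.7% in injured cord. Microglia-like nuclei of intact cord, the class with least FGF1, had thinned shares of 0.196% to 0.360%, somewhat below those of intact oligodendrocyte-like nuclei. Median depths were 3236 to 4019 UMIs in the former and 5715 to 8620 UMIs in the latter. The part of free RNA in the low level of intact cord was not tested.

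Markers of astrocytes and neurons were also measured in oligodendrocyte-like nuclei. The 7 markers of astrocytes summed to 212, 233 and 196 CPM there in intact cervical, thoracic and lumbar cord and to 298, 140, 166 and 198 CPM at 7, 14 and 30 dpi and 6 mpi, so that 7 dpi alone lay above the intact range. The neuron markers summed to 41.4 to 64.4 CPM in intact and 53.6 to 70.7 CPM in injured libraries. The FGF1 level of oligodendrocyte-like nuclei as a share of that of astrocyte-like nuclei was 8.09% to 13.5% in intact and 24.7% to 75.5% in injured libraries. The median of the same share over the astrocyte markers was 1.94% to 2.56% in intact and 1.06% to 1.44% in injured libraries. In all 4 injured libraries the FGF1 share was above that of every astrocyte marker. The part of RNA from other classes in the FGF1 level was not tested.

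Different clusters held the oligodendrocyte-like nuclei of intact and injured cord. The FGF genes had been left out of the genes used for clustering. Clusters 2 (led by OLAH and OPALIN), 5 (KCNMB4, ENPP6) and 9 (RAI14, CNMD) held the intact nuclei. Clusters 1 (CPB1, TRPM1, OPALIN) and 3 (PEBP4, CSF1, FGFR2) had under 50 nuclei from each intact library. In cluster 1 the FGF1 level was 47.6, 44.2, 49.0 and 84.3 CPM at 7, 14 and 30 dpi and 6 mpi. In cluster 3 it was 33.3, 23.2, 25.4 and 36.6 CPM, below cluster 1 in each of the 4 libraries with intervals that do not overlap.

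FGF1 was also higher within the clusters of intact cord wherever enough injured nuclei fell in them. In cluster 2 it was 6.18, 5.61 and 9.09 CPM in intact cervical, thoracic and lumbar cord, 43.1 (24.1 to 71.1) CPM in 74 nuclei of 14 dpi and 61.7 (44.5 to 83.4) CPM in 209 nuclei of 6 mpi. In cluster 5 it was 3.31, 3.68 and 5.02 CPM in the intact segments, 52.7 (30.7 to 84.4) CPM in 63 nuclei of 14 dpi and 60.8 (46.9 to 77.5) CPM in 250 nuclei of 6 mpi. Cluster 9 was lower throughout, at 1.27 to 2.43 CPM in the intact segments and 8.74 (3.21 to 19.0) CPM in 87 nuclei of 6 mpi, from 6 UMIs. At 30 dpi none of the 3 clusters had 50 nuclei, and together they held 74 nuclei and 11 FGF1 UMIs, at 17.9 CPM against 4.88 CPM in intact lumbar cord, a log2 ratio of 1.87. At 7 dpi they held 31 nuclei and 2 FGF1 UMIs in all, too few to read. The other clusters thus carry the 7 dpi value, and whether they differ from the intact clusters by injury or by animal cannot be told apart.

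**Figure D2:**
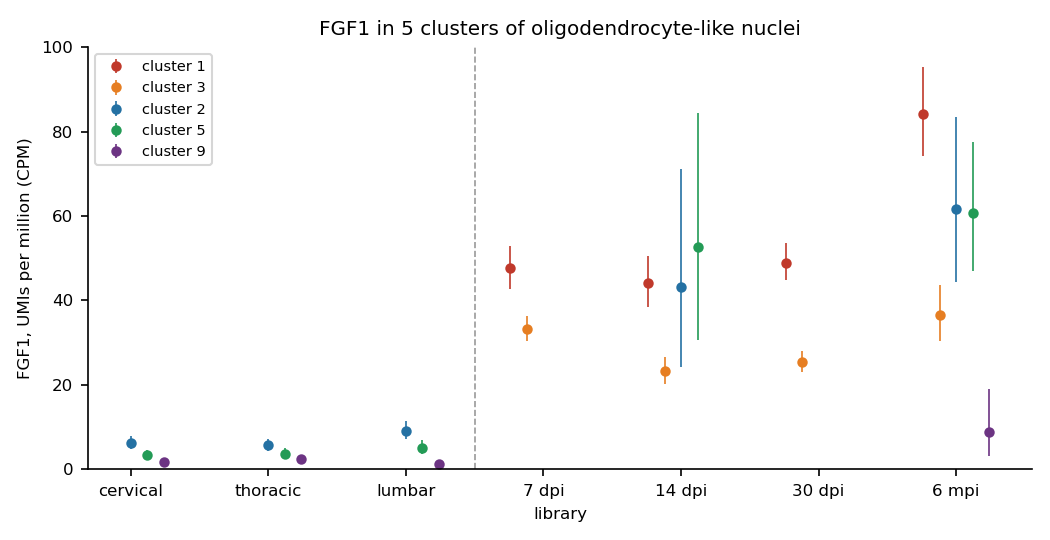
FGF1 in CPM (vertical axis, linear) by library (horizontal axis) in 5 clusters of oligodendrocyte-like nuclei, for each cluster with at least 50 nuclei in that library. Points are class sums and lines exact Poisson 95% intervals. Intact values of clusters 2, 5 and 9 lie at or below 9.09 CPM, and injured values of clusters 1, 2, 3 and 5 lie at or above 23.2 CPM.

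In astrocyte-like nuclei FGF1 was higher in all 4 injured libraries too. It was 38.6, 43.9 and 35.4 CPM in the intact segments and 154 (128 to 184), 91.4, 94.8 and 73.7 CPM at 7, 14 and 30 dpi and 6 mpi, from 122, 163, 165 and 51 UMIs. The groups do not overlap, and 7 dpi stands above the other 3. The log2 ratio to intact lumbar cord was 2.12 (1.80 to 2.43), 1.37 (1.08 to 1.65), 1.42 (1.13 to 1.70) and 1.06 (0.60 to 1.49). By the call rule 0.852% of 9391 genes were higher and 0.224% lower in astrocyte-like nuclei, and FGF1 was the called one of 5 members tested, again from levels on which it was listed. This call did not hold with thinned nuclei, where the log2 ratios of 14 dpi, 30 dpi and 6 mpi were 0.77, 0.47 and 0.71, and the 6 mpi ratio was under 2-fold in other alternatives as well, among them 0.91 with each nucleus named alone and 0.84 with median-of-ratios size factors. Within cluster 10, which carries the white matter astrocyte markers VCAN and IL33, FGF1 was 53.1, 44.8 and 58.6 CPM in intact and 184 (146 to 229), 70.4 (51.4 to 94.2) and 96.7 (79.9 to 116) CPM at 7, 14 and 30 dpi, so that the interval of 14 dpi overlaps that of intact lumbar cord (50.7 to 67.3). Within cluster 13, which carries the gray matter markers SLC1A2 and ITPRID1, it was 19.5, 38.1 and 17.7 CPM in intact cord, 103 (85.3 to 123) CPM at 14 dpi and 52.8 (33.1 to 80.0) CPM at 6 mpi, the latter overlapping intact thoracic cord (31.3 to 46.0).

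In microglia-like nuclei FGF1 was high in the 2 latest libraries. It was 2.36, 1.77 and 2.02 CPM in the intact segments, 3.81 and 3.30 CPM at 7 and 14 dpi, 9.16 CPM at 30 dpi and 32.7 CPM at 6 mpi. The log2 ratio to intact lumbar cord was 0.91 (0.08 to 1.83), 0.70 (−0.12 to 1.62), 2.18 (1.43 to 3.04) and 4.01 (3.26 to 4.88). With each nucleus named alone from its markers, in place of its cluster, the last 2 were 0.99 and 1.96, and with thinned nuclei those of 14 dpi and 6 mpi were −0.03 and 3.23. At 6 mpi 195 of the 203 FGF1 UMIs of the class came from cluster 15, at 59.4 (51.4 to 68.4) CPM, whereas cluster 7 of the same library had 2.21 (0.72 to 5.17) CPM. The level thus differed by cluster within the 6 mpi library. Cluster 15 holds 1220 nuclei, 97.0% of them from 6 mpi, so that its state cannot be told apart from time point and animal. It was led by CDH1, GPNMB and CHIT1, the last 2 being genes of lipid-laden phagocytes. Its microglia markers summed to 1330 CPM against 5696 CPM in cluster 0, and its oligodendrocyte markers to 1392 against 1171 CPM. At 30 dpi cluster 11, led by TGM2, ITGAX and GPNMB, had 18.5 (16.0 to 21.2) CPM and cluster 12 had 1.74 (1.08 to 2.66) CPM. Oligodendrocyte markers in microglia-like nuclei as a whole summed to 1012 to 1303 CPM in intact and 995 to 1249 CPM in injured libraries. Their part in the FGF1 level was not tested.

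FGF1 in OPC-like nuclei was 3.39, 3.63 and 3.83 CPM in the intact segments and 4.06, 7.12, 9.36 and 4.32 CPM at 7, 14 and 30 dpi and 6 mpi. All 4 injured values lie above the intact range, but the interval of the log2 ratio to intact lumbar cord excludes 0 at 30 dpi alone, at 1.29 (0.42 to 2.20), and the values of 7 dpi, 14 dpi and 6 mpi rest on 7, 12 and 4 UMIs. The 30 dpi ratio was 0.20 with each nucleus named alone and 0.12 with thinned nuclei. FGF1 had a mean under 10 CPM in OPC-like and in microglia-like nuclei, so the call rule did not cover it there. By that rule 0.34% of 8534 genes were higher and 0.141% lower in OPC-like nuclei, with FGF2, FGFR1 and FGFR2, the 3 members tested, not among them.

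Neuron-like nuclei, which held most of the pooled FGF1 UMIs, showed no common shift. The level was 55.3, 36.2 and 43.8 CPM in intact cervical, thoracic and lumbar cord and 50.1, 44.2, 41.8 and 26.8 CPM at 7, 14 and 30 dpi and 6 mpi. The first 3 injured values lie inside the intact range, and that of 6 mpi lies below it with a log2 ratio of −0.71 (−0.83 to −0.59). By the call rule 0.0542% of 9227 genes were higher and 0.0759% lower in neuron-like nuclei, none of the 5 members tested among them. In sub-cluster 0, the largest with 1807 nuclei and a mixture of SLC17A6 (53.4 CPM) and SLC6A5 (86.6 CPM), FGF1 was 83.6, 77.5 and 71.2 CPM in the intact segments, 72.2, 74.4 and 68.4 CPM at 7, 14 and 30 dpi, and 39.7 (34.3 to 45.7) CPM at 6 mpi. Of 4 sub-clusters compared, 2 were lower at 6 mpi, the shallowest library, than in intact lumbar cord. The others had low levels, with 4.57 and 3.17 CPM in sub-cluster 2, 2.28 and 3.14 CPM in sub-cluster 1 and 0.889 and 6.12 CPM in sub-cluster 3, from 3 to 11 UMIs each, so that 2 of them went the other way. Sub-cluster 0 made up 17.8% of neuron-like nuclei of intact lumbar cord and 13.4% of those at 6 mpi.

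Across 30 neuron-like sub-clusters the FGF1 level ran from 1.99 to 209 CPM. The sub-clusters had been made without the FGF genes and without the transmitter genes. Sub-clusters 24 and 27, of 57 and 33 nuclei, were highest with 209 and 166 CPM. Both carried the cholinergic genes CHAT (choline acetyltransferase), at 86.4 and 107 CPM, and SLC5A7 (the choline transporter), at 218 and 311 CPM, with 0.49 and 3.41 CPM of GAD1. SLC18A3, also listed as cholinergic, was near the floor at 0.49 and 1.02 CPM. The listed excitatory gene SLC17A7 was at 1.23 and 30.3 CPM. Nuclei of both sub-clusters were rich in RNA, with medians of 139491 and 87917 UMIs, and intact lumbar cord gave 29.8% and 24.2% of them. Another sub-cluster with CHAT, number 26 of 45 nuclei with 65.2 CPM of CHAT and 182 CPM of GAD1, had only 35.3 CPM of FGF1. At the other end, sub-clusters 1, 2 and 3, which carry the excitatory transporter gene SLC17A6 at 86.8 to 111 CPM, had 1.99 to 3.36 CPM. Not all sub-clusters with SLC17A6 were low, since number 15, at 122 CPM of it, had 48.7 CPM of FGF1. Over the sub-clusters FGF1 and FGF9 levels had a Spearman rho of 0.88 and a Pearson r of 0.81 on the log2 scale, over 30 points that share libraries.

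**Figure D3:**
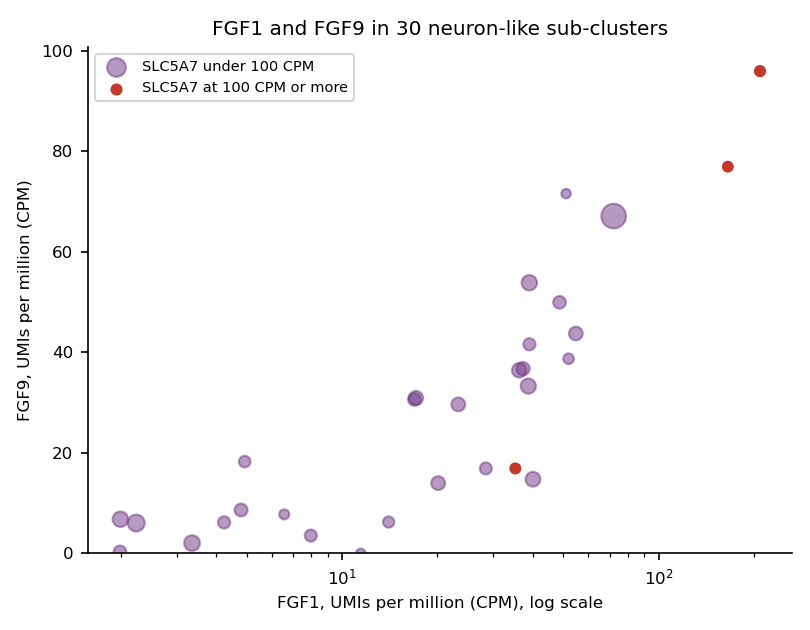
FGF9 (vertical axis, CPM, linear) against FGF1 (horizontal axis, CPM, log scale) in 30 sub-clusters of neuron-like nuclei, pooled over the 7 libraries, with larger points for more nuclei. Red points are the 3 sub-clusters with SLC5A7 at 100 CPM or more. Both levels run from low to high together, with sub-clusters 24 and 27 at 209 and 166 CPM of FGF1 in the upper right.

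FGF9 was a neuronal gene here, and 96.7% of its UMIs in named classes lay in neuron-like nuclei. Its level there was 43.4, 29.2 and 39.9 CPM in intact cervical, thoracic and lumbar cord and 39.7, 38.9, 36.7 and 51.6 CPM at 7, 14 and 30 dpi and 6 mpi. The first 3 injured values lie inside the intact range and that of 6 mpi above it, with a log2 ratio of 0.37. At 6 mpi FGF9 was thus higher and FGF1 lower in the same nuclei. In sub-cluster 0 the same was seen, with FGF9 at 73.9, 58.5 and 68.6 CPM in the intact segments and 55.7, 66.7, 64.0 and 93.6 CPM after injury. Sub-clusters 24 and 27 were also highest for FGF9, with 96.0 and 77.0 CPM. In OPC-like nuclei FGF9 was 8.75, 8.01 and 8.51 CPM in intact cord and 19.7, 7.71, 4.13 and 7.55 CPM after injury, from only 34, 13, 15 and 7 UMIs. The log2 ratio of 7 dpi to intact lumbar cord was 1.21, but 0.04 with each nucleus named alone and −0.72 with thinned nuclei.

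Among the main classes FGF2 had its highest CPM in astrocyte-like nuclei. Neuron-like nuclei nevertheless held 69.1% of its UMIs in named classes, and astrocyte-like nuclei 22.8%. Its level in astrocyte-like nuclei was 78.1, 68.1 and 84.8 CPM in intact cervical, thoracic and lumbar cord and 34.1, 60.5, 78.7 and 41.9 CPM at 7, 14 and 30 dpi and 6 mpi. The value of 30 dpi lies inside the intact range and the other 3 lie below it, with log2 ratios of −1.31 (−1.93 to −0.76), −0.49 (−0.79 to −0.19) and −1.02 (−1.61 to −0.48) in order of time. The astrocyte-like values of 7 dpi and 6 mpi rest on 27 and 29 UMIs. In 1 astrocyte-like sub-cluster of 485 nuclei, 75.5% of them from intact thoracic cord, oligodendrocyte markers exceeded 2000 CPM. They summed to 7732 CPM against 2394 CPM of astrocyte markers, which goes against its name. Without this sub-cluster FGF2 was 81.7, 87.1 and 85.3 CPM in intact cord. After injury it was then 36.9, 61.3, 95.7 and 51.6 CPM, with 30 dpi above the intact range. FGF2 and FGF1 thus stood on opposite sides of intact lumbar cord in these nuclei at 7 and 14 dpi and 6 mpi.

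In OPC-like nuclei FGF2 was 29.5, 29.1 and 29.4 CPM in the 3 intact segments, which agree closely, and 9.86, 14.8, 16.5 and 18.3 CPM at 7, 14 and 30 dpi and 6 mpi. All 4 injured values lie below the intact range. The call rule was not met, since the log2 ratio was −1.57 (−2.39 to −0.84) at 7 dpi but nearer to 0 than the 2-fold limit in the others. These had ratios of −0.99 (−1.66 to −0.36), −0.83 (−1.29 to −0.38) and −0.68 (−1.50 to 0.05). With thinned nuclei the ratios of 7, 14 and 30 dpi were −0.97, −0.04 and −1.55, so that the 14 dpi difference nearly vanished. In neuron-like nuclei FGF2 was 29.8, 26.1 and 28.3 CPM in intact cord and 18.0, 23.6, 26.7 and 20.8 CPM after injury, so that the 7 dpi library had the lowest value in all 3 classes. Oligodendrocyte-like and microglia-like nuclei had at most 0.880 CPM of FGF2. Reads of NUDT6 could add to any FGF2 value.

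**Figure D4:**
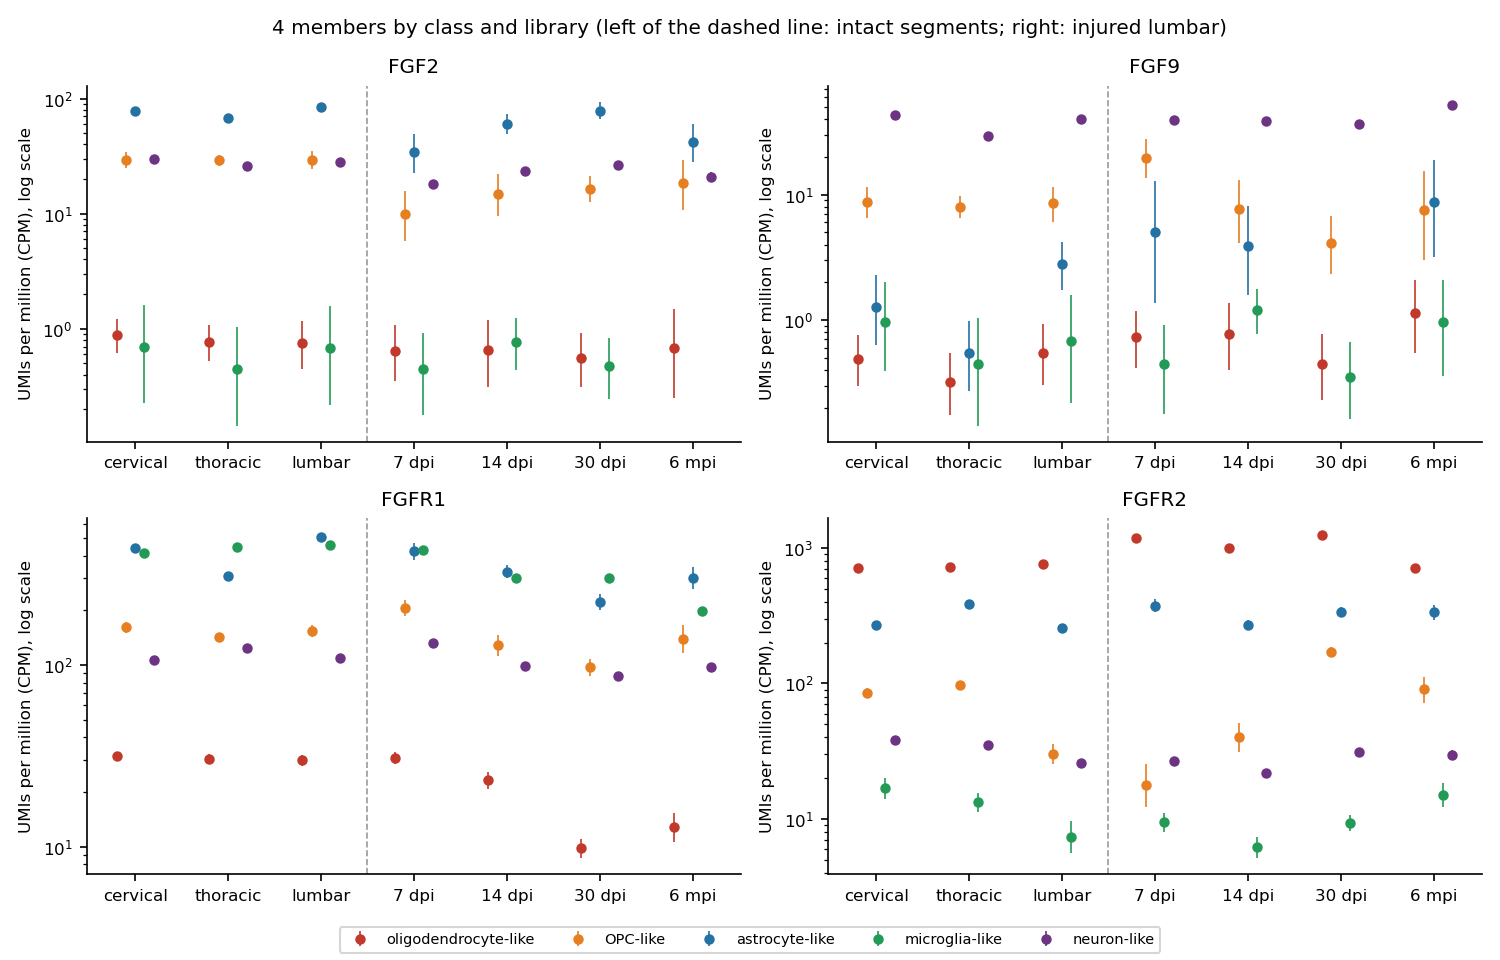
Levels of FGF2, FGF9, FGFR1 and FGFR2 in CPM (vertical axes, log scale) by library (horizontal axes), with the 3 intact segments left of the dashed line and the 4 injured lumbar libraries right of it. Points are class sums coloured by class and lines exact Poisson 95% intervals, and a sum of 3 or fewer UMIs is not drawn. FGF2 was highest in astrocyte-like, FGF9 in neuron-like and FGFR2 in oligodendrocyte-like nuclei in every library, and FGFR1 of oligodendrocyte-like nuclei reached 9.81 CPM at 30 dpi.

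FGFR2 was the oligodendrocyte receptor of the group, with 84.9% of its UMIs in named classes in oligodendrocyte-like nuclei. Its level there was 709, 719 and 755 CPM in intact cervical, thoracic and lumbar cord, 1179, 1002 and 1237 CPM at 7, 14 and 30 dpi, and 713 CPM at 6 mpi. The first 3 injured libraries lie above the intact range and that of 6 mpi lies inside it. The log2 ratios were 0.64 (0.62 to 0.67), 0.41 (0.38 to 0.44), 0.71 (0.69 to 0.74) and −0.08, all under the 2-fold limit. The thinned share of nuclei with an FGFR2 UMI was 41.0% to 41.8% in intact cord and 61.3%, 57.2%, 62.1% and 42.7% after injury. Within cluster 2 FGFR2 was 474, 419 and 470 CPM in the intact segments, 710 CPM at 14 dpi and 547 CPM at 6 mpi. Cluster 3, of injured cord and partly led by FGFR2 itself, had 1273, 1079, 1412 and 929 CPM, and cluster 9 of intact cord had 1006, 999 and 1156 CPM.

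FGFR2 in astrocyte-like nuclei as a whole stayed within the intact range of 254 to 382 CPM in all 4 injured libraries. Its levels there were 375, 270, 336 and 335 CPM. The log2 ratio to intact lumbar cord was 0.40 at both 30 dpi and 6 mpi, but −0.45 and −0.82 with each nucleus named alone. In OPC-like nuclei it was 85.0, 98.0 and 30.4 CPM in intact cervical, thoracic and lumbar cord and 18.0, 40.3, 172 and 90.6 CPM after injury. The summed oligodendrocyte markers in the same OPC-like nuclei were 1274, 1367 and 286 CPM in the intact segments and 281, 271, 1868 and 903 CPM after injury, high in the same libraries as FGFR2. Without the 2 OPC-like sub-clusters in which these markers exceeded 2000 CPM, FGFR2 was 38.3, 34.1 and 30.0 CPM in intact cord and 17.0, 40.6, 15.6 and 68.6 CPM after injury. The 30 dpi value then lay below intact lumbar cord instead of above it. Of the 2 left out, sub-cluster 4 carried the listed markers of new oligodendrocytes BCAS1, ENPP6 and GPR17 at 7055, 618 and 156 CPM. Its OPC markers summed to 14820 CPM, and its FGFR2 was 162 CPM. Whether the FGFR2 of sub-cluster 4 belongs to such a state or is RNA of other nuclei was not tested. The other one left out, sub-cluster 5 of 117 nuclei, had more FGFR2, at 542 CPM. Its oligodendrocyte markers, at 7328 CPM, exceeded its OPC markers, at 5978 CPM, which goes against the OPC-like name. The astrocyte-like sub-cluster in which oligodendrocyte markers exceeded 2000 CPM had more of these markers (7732 CPM) than astrocyte markers (2394 CPM). Intact thoracic cord gave 75.5% of its nuclei, so it weighs most on the thoracic values. Leaving it out kept FGF1 higher in astrocyte-like nuclei of all 4 injured libraries. FGF1 was then 40.3, 58.0 and 35.5 CPM in intact and 161, 93.4, 108 and 80.3 CPM in injured cord. FGFR2 of astrocyte-like nuclei was then 265, 265 and 248 CPM in intact cord and 337, 264, 245 and 235 CPM after injury. The 7 dpi value thus moved above the intact range, and those of 30 dpi and 6 mpi moved below it.

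FGFR1 was highest in astrocyte-like and microglia-like nuclei. In microglia-like nuclei it was 415, 445 and 455 CPM in intact cervical, thoracic and lumbar cord and 427, 302, 303 and 198 CPM at 7, 14 and 30 dpi and 6 mpi. The 7 dpi value lies inside the intact range, and the others lie below it with log2 ratios of −0.60 (−0.66 to −0.53), −0.59 (−0.65 to −0.53) and −1.20 (−1.30 to −1.11). By the call rule 2.05% of 8533 genes were higher and 1.04% lower in microglia-like nuclei, neither of the 2 members tested among them. Levels differed by cluster, with 419 to 450 CPM in cluster 0 of intact cord, 195 CPM in cluster 11 and 400 CPM in cluster 12 of 30 dpi, and 96.6 CPM in cluster 15 and 341 CPM in cluster 7 of 6 mpi. Clusters 11 and 15 were thus low in FGFR1 and higher in FGF1 than clusters 12 and 7 of their own libraries. Lower levels there were not particular to FGFR1. The microglia markers, pooled over libraries, summed to 2253 and 1330 CPM in clusters 11 and 15 and to 5445 and 5676 CPM in clusters 12 and 7. Over the whole class they summed to 5395 to 5797 CPM in intact and 5275, 4980, 3973 and 3087 CPM in injured libraries, in order of time.

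In astrocyte-like nuclei FGFR1 was 443, 307 and 507 CPM in intact cord and 422, 326, 221 and 301 CPM after injury. The first 2 injured values lie inside the intact range and the last 2 below it, by a small margin at 6 mpi. Without the astrocyte-like sub-cluster high in oligodendrocyte markers FGFR1 was 462, 395 and 509 CPM in intact cord. After injury it was then 430, 331, 224 and 358 CPM, with 7 dpi alone inside the intact range. In oligodendrocyte-like nuclei it was 31.6, 30.5 and 29.9 CPM in intact cord and 30.8, 23.2, 9.81 and 12.8 CPM after injury. The log2 ratio was 0.04 at 7 dpi and −0.36 at 14 dpi. The 30 dpi and 6 mpi libraries had −1.61 (−1.81 to −1.40) and −1.22 (−1.52 to −0.94). These ratios depended on how nuclei were grouped. They were −1.22, −1.15, −2.77 and −1.77 in order of time at clustering resolution 0.5, and 0.05, −0.00386, −0.59 and −0.15 with each nucleus named alone. Cluster 9 shared this direction, with 58.1, 53.3 and 59.5 CPM in the intact segments and 20.4 CPM at 6 mpi, and cluster 3 had 41.1 CPM at 7 dpi and 13.4 CPM at 30 dpi. In OPC-like nuclei FGFR1 was 161, 142 and 154 CPM in intact cord and 206, 128, 96.9 and 139 CPM after injury, highest at 7 dpi. In neuron-like nuclei it was 107, 124 and 110 CPM in intact cord and 133, 99.0, 86.8 and 97.6 CPM after injury, also highest at 7 dpi. In each of the 5 classes the 30 dpi value of FGFR1 was thus below that of 7 dpi.

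FGFR3 was mostly found in astrocyte-like nuclei, which held 80.4% of its UMIs in named classes. Its level there was 13.7, 12.2 and 16.4 CPM in intact cervical, thoracic and lumbar cord and 6.31, 15.1, 12.1 and 17.3 CPM after injury. The injured values rest on 5, 27, 21 and 12 UMIs. A difference from intact cord was not detectable at this depth beyond 7 dpi, where the log2 ratio was −1.38 (−3.02 to −0.12). Over the alternatives this ratio ran from −2.25 to −0.37. In the other 4 main classes FGFR3 was at most 1.78 CPM.

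**Figure D5:**
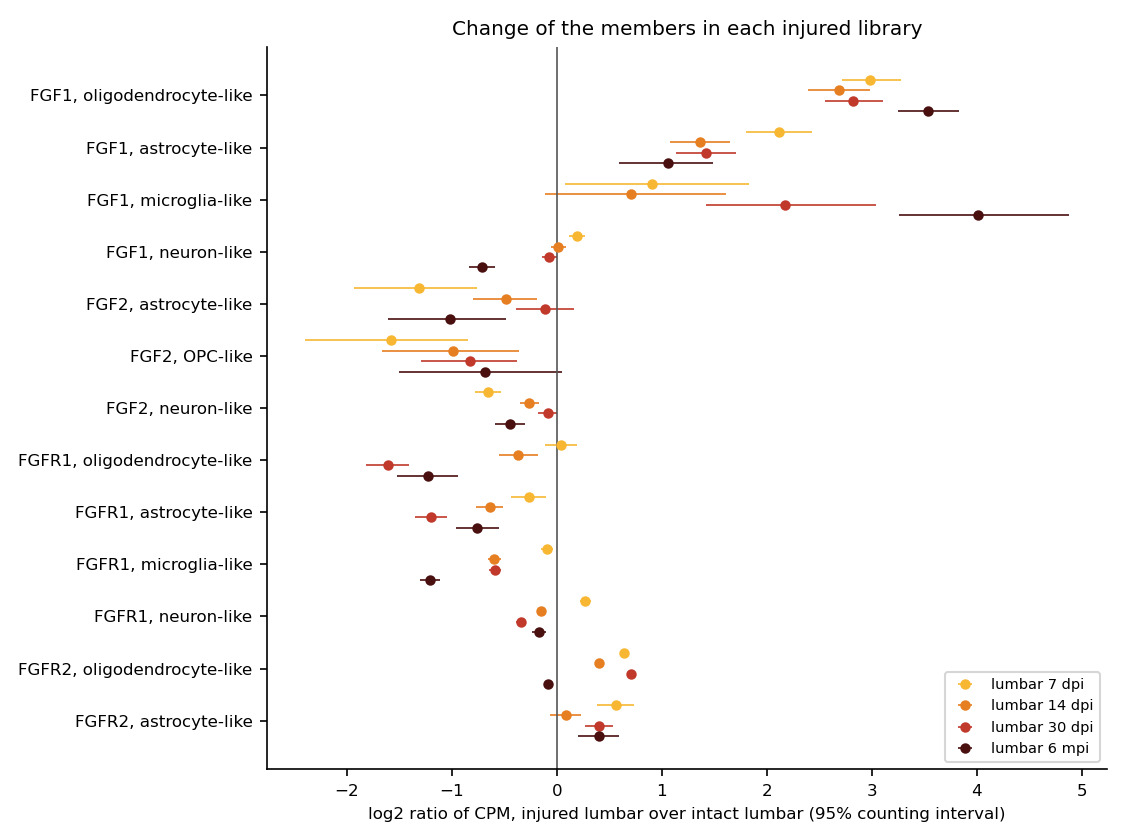
log2 ratio of CPM of each injured lumbar library over intact lumbar cord (horizontal axis) for 13 pairs of gene and class (vertical axis), with exact conditional binomial 95% intervals and 1 colour per library. FGF1 lies right of 0 in oligodendrocyte-like and astrocyte-like nuclei in all 4 libraries, the points of FGF2 lie left of 0 in 3 classes, and FGFR2 of oligodendrocyte-like nuclei lies right of 0 in 3 of 4 libraries.

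A list of 80 other genes of the pathway, 78 of them found, was described by the same rule. In oligodendrocyte-like nuclei 30 were tested, and GPC6, a glypican, fell from 103, 103 and 86.6 CPM in the intact segments to 11.4, 17.0, 13.1 and 14.3 CPM after injury. GPC6 was a neuron-rich gene here, with at least 1209 CPM in neuron-like nuclei of every library, and the neuron markers in oligodendrocyte-like nuclei had the sums given above. Their part in this result was not tested. In microglia-like nuclei 33 were tested. NDST1, a heparan sulfate sulfotransferase, rose from 13.6, 11.4 and 10.5 CPM to 37.5, 26.2, 45.8 and 28.4 CPM, and ETV1, a transcription factor induced by FGF signals, fell from 84.5, 76.8 and 88.3 CPM to 31.0, 39.9, 30.1 and 30.6 CPM. In OPC-like, astrocyte-like and neuron-like nuclei 41, 43 and 40 were tested and none was called, beside the shares of all genes given above (at most 0.852% in either direction), at which a count of 0 says nothing about the list. The called shares of the list, 3.33% lower in oligodendrocyte-like nuclei and 3.03% in each direction in microglia-like nuclei, rest on these 3 results. The shares over all genes tested were 0.29% lower in oligodendrocyte-like nuclei and 2.05% higher and 1.04% lower in microglia-like nuclei, so that 1 gene of 33 in each direction is near the background and nothing is read from it about the list. The median log2 ratio of the tested list genes in oligodendrocyte-like nuclei was 0.16, 0.02, 0.02 and −0.04 in the 4 injured libraries against 0.10, −0.03, −0.01 and 0.09 over all genes tested. In microglia-like nuclei it was 0.03, 0.02, 0.11 and 0.11 against 0.04, −0.07, −0.04 and 0.15. In astrocyte-like, OPC-like and neuron-like nuclei the medians of the list lay between −0.11 and 0.12, and those over all genes tested between −0.04 and 0.15. At 6 mpi the list had −0.10, 0.04 and −0.08 in these classes against 0.15, 0.11 and 0.03 over all genes. In neuron-like nuclei at 7 dpi it had −0.11 against 0.03. The list lay above all genes in some other pairs, such as astrocyte-like nuclei at 14 dpi with 0.12 against 0.06. None of the feedback inhibitors tested, 3 to 7 of the 12 listed in each class, was called in any class. At shares over all genes of at most 2.05% in either direction, a count of 0 says nothing about them.

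Several pathway genes stood at least 2-fold above every other main class in all 7 libraries. In astrocyte-like nuclei these included the syndecan SDC4 and the glypican GPC4, with median folds of 95.7 and 12.2. In OPC-like nuclei they were ETV1 and the feedback inhibitor SPRY4, with 8.37 and 7.58. In microglia-like nuclei they included GRB2 and the kinase MAP2K1, with 6.19 and 3.61. In neuron-like nuclei they were NDST4, a heparan sulfate sulfotransferase, with a median fold of 48.4, and GPC6, with a lowest fold of 2.01. In oligodendrocyte-like nuclei it was the adaptor GAB1, with 4.16. Of the 15 other FGF ligands listed, 14 were found, and 10 of these stayed under 2 CPM in every class and library. FGF10 was the highest, at 93.9 CPM in OPC-like nuclei of intact cervical cord. FGF12, FGF13 and FGF14, intracellular homologues that act on sodium channels and do not serve as ligands, reached 594, 641 and 3244 CPM in neuron-like nuclei.

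The genes most like each member were taken over 42 sums of class and library, among 9567 genes, as a description on points that share libraries and classes. FGF1 was most like SORCS2 (Pearson r of 0.88), EFCAB6 (0.88) and CFAP221 (0.86). FGF2 was most like ZNF423 (0.98), RAVER2 (0.97) and CACHD1 (0.97), and FGF9 most like VSNL1 (0.94), COL25A1 (0.93) and GABRB2 (0.93). FGFR1 was most like BRINP2 (0.91), CNTFR (0.90) and EEF2K (0.89). FGFR2 was most like CTNNA3 (0.96), SLC44A1 (0.95) and FEZ1 (0.95), and FGFR3 most like ITPRID1 (0.94), AHCYL1 (0.93) and CES1 (0.93).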

How the data were processed

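Nuclei of rhesus monkey cord were isolated by the authors and run on the 10x V3 platform. The authors deposited 1 matrix of whole UMI counts per library, made with Cell Ranger 6.0.0 on Mmul_10 per the labels. Whether intron reads were counted, and by strand, is not given in the sources used here.

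Members and gene lists were chosen with earlier results of these data known. UMI counts of identifiers sharing a symbol were summed, which gave 28966 symbols. The filters of the study were used (more than 500 genes and 1000 UMIs, less than 10% of UMIs mitochondrial and less than 5% from hemoglobin genes), which kept 67084 barcodes, and the 5% with the highest Scrublet scores were removed (3354). Scrublet was run through scanpy 1.11.5. Then 2000 variable genes without the FGF and pathway genes gave 30 principal components, computed without scanpy. Leiden clustering (leidenalg 0.10.2, igraph 0.11.9, 20 neighbours, resolution 1, no integration) gave 40 clusters. Clusters were named "-like" from marker lists, with details of the naming rule set after clusters had been seen, and 5 clusters (1499 nuclei, 2.35%) stayed unnamed. Sub-clusters used resolution 0.5 and also left out their own markers. Free RNA was not subtracted.

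UMI counts of a class were summed per library where it had at least 50 nuclei. CPM carries exact Poisson intervals, and ratios exact conditional binomial intervals (scipy 1.17.1). Nuclei of 1 library are not replicates, so no test was made and no p-value is given. Calls used log2 of CPM plus 1. Named pathway genes were, per main class, up to 3 called genes, ranked by their smallest ratio, and up to 2 at least 2-fold above every other main class in all libraries. The 3 genes with the highest Pearson r were taken for each member. Alternatives were other resolutions, normalizations, filters and doublet treatment, naming each nucleus alone, thinned nuclei and a mean over nuclei. Added after the data were seen were calls without 6 mpi, values without sub-clusters above 2000 CPM of oligodendrocyte markers, and FGF1 in 3 intact clusters. Versions of other tools were Python 3.11.15, numpy 2.4.6, pandas 2.3.3, scikit-learn 1.9.0 and matplotlib 3.10.9.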

Additional observations from a re-analysis of the deposited data

Results flagged for a closer look

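For 4 pairs of gene and class the injured libraries stood on opposite sides of the intact range, with counting intervals of the ratio that exclude 0. Each group is 1 library, so these differences between time points were not tested. FGF9 in OPC-like nuclei had a log2 ratio to intact lumbar cord of 1.21 at 7 dpi and −1.04 at 30 dpi. The first of these turned to −0.72 with thinned nuclei, and that of 30 dpi ran from −1.13 to −0.30 over the alternatives. FGFR1 in OPC-like nuclei had ratios of 0.42 at 7 dpi, −0.27 at 14 dpi and −0.67 at 30 dpi. Over the alternatives these ran from 0.05 to 0.44, from −0.39 to −0.20 and from −0.70 to −0.43, so that the rise at 7 dpi nearly vanished at its lowest. FGFR1 in neuron-like nuclei had a ratio of 0.27 at 7 dpi, whereas those of 14 dpi, 30 dpi and 6 mpi were −0.15, −0.34 and −0.17, the last of which turned to 0.0785 with thinned nuclei. FGFR2 in OPC-like nuclei had ratios of 2.50 at 30 dpi and −0.76 at 7 dpi, and the oligodendrocyte markers of the same nuclei summed to 1868 and 281 CPM in these libraries. The direction of this pair turned in 3 alternatives at 30 dpi and in 5 at 7 dpi.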

How the results depend on the processing

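No paired analysis was possible because each group is 1 library, and for the same reason no replicate could be left out. The log2 ratio of FGF1 in oligodendrocyte-like nuclei kept its direction in all 39 alternative values and lay within its counting interval in 26. It was 3.43, 3.05 and 3.19 at 7, 14 and 30 dpi at resolution 0.5. It was 2.68, 2.30, 2.51 and 3.20 at 7, 14 and 30 dpi and 6 mpi with each nucleus named alone, and 2.28, 1.97, 2.34 and 3.04 with thinned nuclei. In the 3 clusters of intact cord it was 3.06 at 14 dpi and 1.87 at 30 dpi. The fold of FGF1 over the next class moved in 14 of 49 values. With each nucleus named alone it was 0.0855, 0.114 and 0.136 in the cervical, thoracic and lumbar segments and 0.326 at 7 dpi, and with a mean over nuclei 0.108 in cervical and 0.144 in lumbar cord. It was 0.175 in cervical and 0.152 in lumbar cord and 0.554 at 30 dpi with thinned nuclei, 0.0646 in thoracic cord and 0.308 at 7 dpi at resolution 2, and 0.336, 0.430 and 0.463 at 7, 14 and 30 dpi at resolution 0.5. Resolution 0.5 left unnamed a cluster of 2254 nuclei that scored highest for oligodendrocytes, and resolution 2 left such clusters of 1884, 1014 and 249 nuclei unnamed, among others. The count of pathway genes called moved in 5 of 55 values. In OPC-like nuclei it was 1 without 6 mpi (GPC6) against 0, in astrocyte-like nuclei 1 at resolution 2, 1 without doublet removal and 2 with thinned nuclei against 0, and in microglia-like nuclei 1 with each nucleus named alone against 2. Of 980 alternative values of the other ratios 805 lay within the counting interval, 165 lay outside it, and 10 turned the direction of a ratio that had an interval without 0 and a level outside the intact range. Ratios inside the intact range changed sign too, among them FGFR2 at 30 dpi, at −0.45 in astrocyte-like nuclei with each nucleus named alone and −0.36 in neuron-like nuclei without the sub-clusters high in oligodendrocyte markers. FGF9 in OPC-like nuclei at 7 dpi was −0.72 and FGFR1 in neuron-like nuclei at 6 mpi 0.0785 with thinned nuclei. FGFR2 in OPC-like nuclei at 7 dpi was 0.74 at resolution 0.5, 0.76 at resolution 2, 0.74 with FGF genes among the variable genes, 0.17 with each nucleus named alone and 0.40 without doublet removal. At 30 dpi it was −0.72 at resolution 2, −0.72 without doublet removal and −0.94 without the sub-clusters high in oligodendrocyte markers. The causes were not tested. Another normalization and the mean of the intact segments gave no fold over the next class, thinned nuclei gave no value for 18 ratios with few UMIs and the resolutions 0.5 and 2 none for 1, and depth limits the values after injury of astrocyte-like and OPC-like nuclei.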

Other observations

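FGF1 in 85 fibroblast-like nuclei, pooled over the 7 libraries, was 101 (74.2 to 134) CPM from 47 UMIs, and FGFR2 there was 215 (175 to 261) CPM. In 421 T cell-like nuclei FGFR2 was 209 (186 to 235) CPM pooled, with 183 CPM in intact thoracic cord and 62.2, 46.7 and 417 CPM at 7, 14 and 30 dpi, and MOG, an oligodendrocyte marker, was at 126 CPM in the same nuclei.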
